A study of Mus musculus with 19 samples.

Results

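The genes described here encode the machinery that releases neurotransmitter from the presynaptic terminal. They are 32 genes listed by symbol, and all 32 matched 1 gene ID each among the 20655 IDs of the count table and entered the tests of 18204 genes. By role they fall into 9 SNARE, calcium trigger and recycling genes, 13 genes of vesicle proteins and glutamate loading, 8 active zone genes and 2 neurexins. Membership was by name and used no measured value. Each of 19 mice, all 4 months old, gave 1 library of RNA from its left hippocampus. All animals carried the 5xFAD transgenes (5xFADHEMI in the labels, read here as hemizygous), mutant human genes of familial Alzheimer's disease driven in neurons by the Thy1 promoter. The 5xFAD group had 5 females and 5 males, and the knock-in group (5xFADHEMI:CLUh2kbKIHO, read as homozygous for a knock-in named for the clusterin gene) had 4 females and 5 males. The labels do not give the sequence that the knock-in changes, and mice lacking these transgenes are not analysed here.

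A synaptic vesicle is filled with transmitter, tethered and primed at the active zone, and fused with the membrane when calcium enters. Fusion is driven by the SNARE proteins synaptobrevin on the vesicle and syntaxin and SNAP-25 on the plasma membrane. Munc13 and RIM proteins make vesicles ready for release, and synaptotagmin triggers fusion on calcium. In the hippocampus most such terminals are glutamatergic, and loss of presynaptic terminals is a known feature of Alzheimer's disease and of its mouse models.

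Library totals ran from 17278276 (5xFAD male 6) to 25200966 counts (knock-in female 5), and the 32 release genes took 1.33% to 1.77% of the counts of a library. No 2 libraries of the same group agreed within counting error: the lowest chi-square per gene over the 36 pairs was 10.3, and counting error alone gives 1. The labels give each library its own animal number, and p values measure the spread between these animals. Markers of neurons and of dentate granule cells were found in every library. The dentate granule cell marker Prox1 ran from 56.2 to 135.2 CPM, and Rbfox3, which marks neurons, from 177.5 to 385.1 CPM (CPM, counts per 1000000 counts of the scaled library). 5xFAD female 2, 5xFAD male 10 and knock-in female 4 stood apart for many release genes, the first and last low and the second high. Some results that rest on them are given with and without them. Correlations between genes, with exon length and with the noncoding level (below), and medians of wider gene lists, used all 19 libraries. In bulk tissue, fewer terminals or cells of a type and less RNA per cell cannot be told apart. Libraries differed in the level of nuclear long noncoding RNA (mean log2 CPM of 8 such genes, Malat1 and Meg3 among them), here called the noncoding level. It was 6.65, 6.24, 6.16 and 7.08 in knock-in females 1, 2, 4 and 5 and 8.38, 8.25, 8.07, 8.37 and 7.999 in 5xFAD females 1 to 5, so that the female groups did not overlap. Knock-in males 6 to 10 stood at 7.83, 7.12, 7.51, 8.10 and 8.496, and 5xFAD males 6 to 10 at 8.25, 8.13, 7.68, 7.87 and 6.41.

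Levels per exon length (all annotated exons of a gene merged) differed widely and by role. Highest were Snap25 with 270.3 CPM per kb, Cplx2 with 256, Vamp2 with 228.5, the vesicular glutamate transporter Slc17a7 with 227, Cplx1 with 223, Rab3a with 221 and Syp with 216 (means of 19 libraries). Next came Syn1 with 160.2, Syt1 with 144, Nsf with 119.8 and Syn2 with 100.4 CPM per kb. Between 95.4 and 37.8 CPM per kb lay Syngr1, Sv2a, Napb, Sv2b, Rab3c and Stx1a, in this order. The active zone genes were lower, from 28.9 CPM per kb for Rims1 through 25.6 for Unc13a, 23.6 for Bsn, 17.99 for Erc2, 9.31 for Pclo, 7.07 for Rims2 and 3.52 for Erc1 to 1.97 for Unc13b. Nrxn2 had 25.5 and Nrxn3 12.8 CPM per kb. Lowest of the vesicle genes were Synpr with 13.6, Slc17a6 with 4.87, Sv2c with 3.23 and Syn3 with 0.512 CPM per kb, while Vamp1, at 11.1, was the lowest SNARE.

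**Figure D1:**
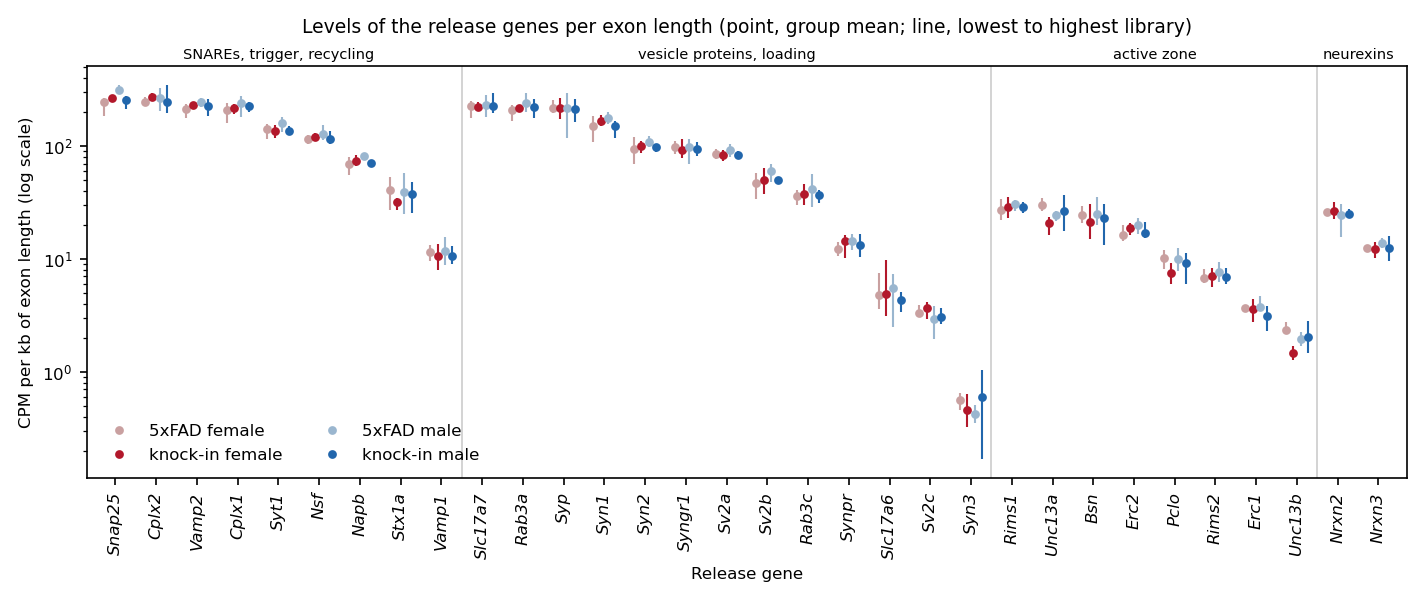
Level of each of the 32 release genes in CPM per kb of exon length on a log axis, ordered by role and by mean; points are group means and lines run from the lowest to the highest library of a group (4 or 5 libraries). SNARE and vesicle genes such as Snap25 and Slc17a7 sit above 200 CPM per kb, while Unc13b and Syn3 are near the bottom.

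The knock-in is compared with 5xFAD alone to ask what it changes in a hippocampus with amyloid pathology. Over both sexes, 0 of the 32 release genes passed the threshold of an edgeR adjusted p of 0.05, against 0.022% of all genes tested (4 of 18204). DESeq2 and limma-voom also called 0 of the 32, and 2 of them, Pclo and Unc13b, had an unadjusted p under 0.05. Of the 32 log2 changes 27 lay below 0, with a median of -0.06 and a range from -0.28 for Unc13b to 0.14 for Syn3, while the median over all genes was 0.00 and 49.6% of all genes lay above 0. Leaving out 1 library in turn left 20 (without 5xFAD female 5 or 5xFAD male 10) to 30 (without knock-in male 6) of the 32 below 0. The data limited most changes over both sexes to small sizes: for 30 of the 32 genes the 95% interval of the change lay within 1.5-fold in either direction, Slc17a6 and Syn3 being the exceptions. This does not limit the change within 1 sex. Within females the interval lay inside this range for 25 of the 32, and for 4 of the 8 active zone genes. It did so for 29 of the 32 within males and for 16 in the difference between the sexes.

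Within females, 1 of the 32 release genes fell and 0 rose. Of all genes, 5.56% were called in females, 1.13% higher and 4.43% lower (206 higher and 807 lower, or 43 and 1236 when only library size was scaled for), so the members' share of 1 in 32 was near the background. The gene that fell was Unc13b. The median over the 32 was 0.05, with 18 genes above 0, and over all genes 0.01. When only library size was scaled for 7 of the 32 lay above 0, and the median over all genes was -0.09. Relative to the median over all genes, 18 lay above it under either scaling. The sign of the median rested on single libraries, since it was -0.03 without 5xFAD female 2 (12 genes above 0) and -0.02 without knock-in female 1 (15 genes above 0), and 0.12 without knock-in female 4 (26 genes above 0).

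Within males, 0 of the 32 release genes passed, and neither did any of the 18204 genes tested with edgeR (0%, with 1187 genes at an unadjusted p under 0.05). DESeq2 called 15 genes higher and 4 lower in males, limma-voom called 0 genes, and both called 0 of the 32. Of the 32 changes 27 lay below 0, with a median of -0.13, while the median over all genes was 0.01. The 4 release genes with an unadjusted p under 0.05, Snap25, Napb, Syt1 and Erc1, all had lower means in knock-in males. Without 1 library the median lay between -0.18 and -0.10, always below 0, and it was -0.10 when only library size was scaled for.

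The direct test of the difference between the sexes, the change in females minus that in males, called 0 of the 32 with edgeR, against 0.308% of all genes. DESeq2 called 1, Unc13b, against 4.21% of all genes with DESeq2, and limma-voom called 0. An unadjusted p under 0.05 with edgeR was reached by 5 of the 32 and by 3225 of the 18204 genes. The median of this difference over the 32 was 0.18, with 24 above 0, against -0.02 over all genes. When only library size was scaled for the median over all genes moved to -0.15, and the release genes' median stood 0.20 above it in both scalings. Without 5xFAD female 2 the median over the 32 was 0.11.

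**Figure D2:**
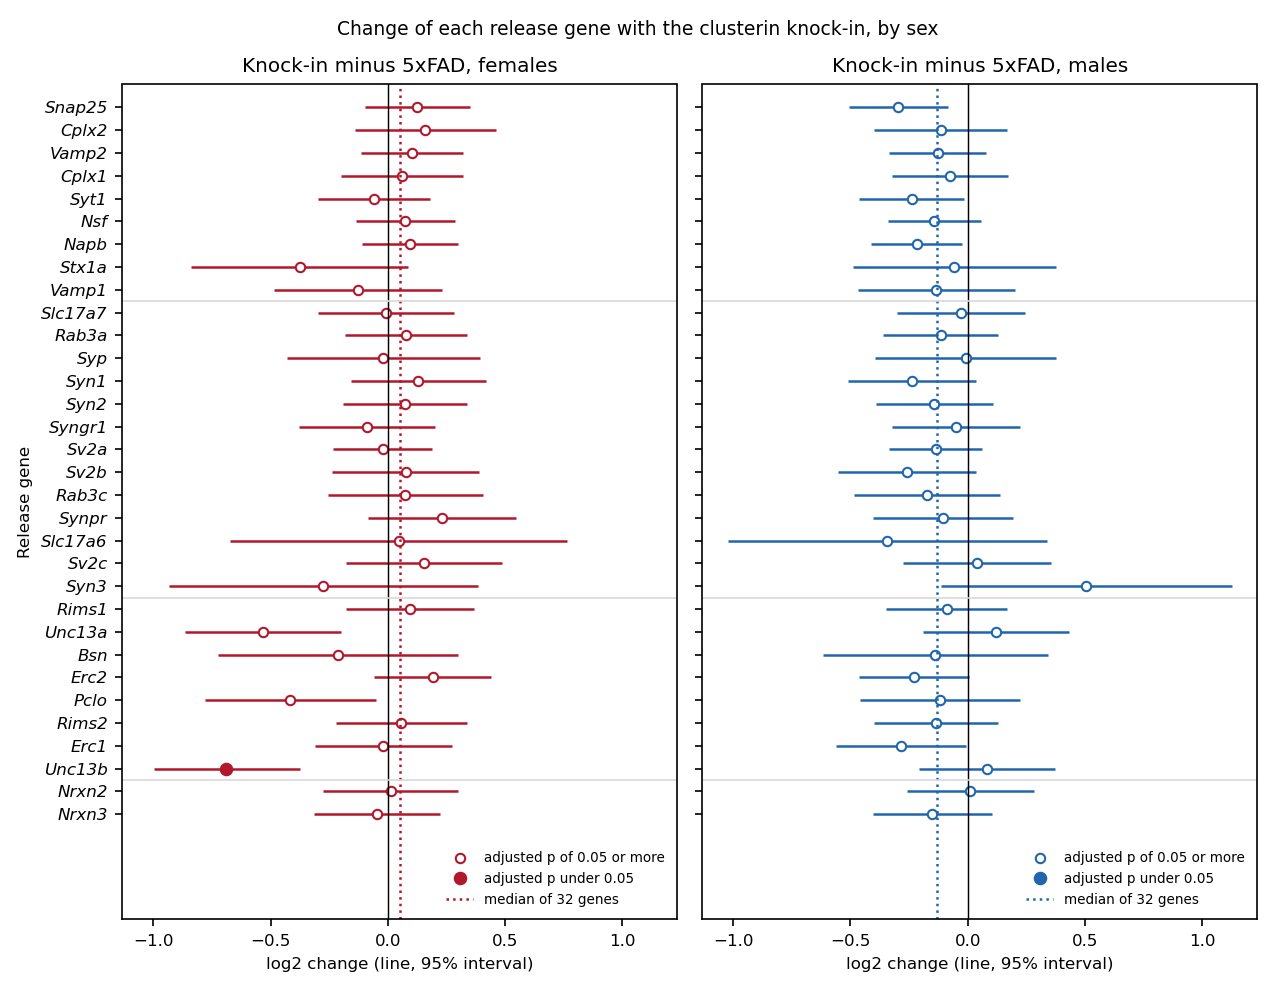
Log2 change with the knock-in (x axis) of each release gene (y axis, by role) in females (left) and males (right), with 95% intervals from edgeR; filled points have an adjusted p under 0.05 and dotted lines mark the median of the 32 genes, 0.05 in females and -0.13 in males. Unc13b in females, at -0.69, is the only filled point.

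Among the genes of the fusion machinery the group medians were -0.07 over both sexes, 0.07 in females and -0.13 in males, where 9 of 9 lay below 0. Snap25, the plasma membrane SNARE and the most abundant member, stood at 1867, 1861, 1849, 1622 and 1461 CPM in knock-in males 6 to 10 and at 2139, 2118, 2360, 1962 and 2057 CPM in 5xFAD males 6 to 10. The male groups did not overlap, and knock-in males 9 and 10 were lowest. The log2 change in males was -0.30 (SE 0.10, 95% interval -0.51 to -0.09, edgeR adjusted p = 0.694) and did not pass. In females Snap25 read 1770.1, 1903, 1799.9 and 1788 CPM in knock-in females 1, 2, 4 and 5 and 1713, 1266, 1773, 1805 and 1758 CPM in 5xFAD females 1 to 5. The female groups overlapped, 5xFAD female 2 stood far below the rest, and the change was 0.13 (SE 0.11, adjusted p = 0.527), or 0.03 without 5xFAD female 2 (adjusted p = 0.9). The difference between the sexes, 0.42 (SE 0.15), had an adjusted p of 0.146.

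Napb, which encodes the SNAP adaptor that brings NSF to used SNARE complexes, was named after its values were seen. It stood at 478.8, 529, 533, 486 and 462.5 CPM in knock-in males 6 to 10 against 565, 541, 609.6, 583 and 596 CPM in 5xFAD males. These groups did not overlap either, and the change was -0.22 (SE 0.09, adjusted p = 0.724). Male groups were apart in this direction for 2 of the 32 release genes, Snap25 and Napb, and for 0.494% of all genes, and apart with the knock-in higher for 0 of the 32 and for 0.527% of all genes. Females overlapped for Napb, with a change of 0.10 (adjusted p = 0.621).

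Syt1, the calcium sensor of fast release, had the lowest p of its class over both sexes. Knock-in males 6 to 10 had 1245, 1048, 1097, 1157 and 1079 CPM, and 5xFAD males had 1351, 1236, 1514, 1104 and 1435 CPM. Knock-in females had 1285, 1248, 992 and 1045 CPM, and 5xFAD females had 1143, 959, 1281, 1295 and 1271 CPM. The groups overlapped in both sexes. Its log2 change was -0.15 over both sexes (SE 0.08, adjusted p = 0.456), -0.24 in males (adjusted p = 0.75) and -0.06 in females (adjusted p = 0.814).

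The remaining fusion genes gave no call in any comparison. The synaptobrevins Vamp2, at 675 to 1021 CPM over all libraries, and Vamp1, at 80.6 to 160.1 CPM, changed by -0.02 and -0.13 over both sexes. The complexins, which hold and then assist the SNARE complex, ran from 352 to 613 CPM (Cplx1) and from 976 to 1710 CPM (Cplx2), with changes of -0.01 and 0.01. Nsf, the ATPase that takes SNARE complexes apart, ran from 867 to 1280.1 CPM and changed by -0.04. Stx1a, the syntaxin of the fusion complex, was the most variable of the class, at 67.1 to 152.5 CPM, with a change of -0.21 (adjusted p = 0.628) over both sexes and -0.38 in females (adjusted p = 0.334).

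Genes of vesicle proteins and glutamate loading had medians of -0.04 over both sexes, 0.07 in females and -0.12 in males, with 0 of 13 past the threshold in each. Slc17a7, the vesicular transporter of most hippocampal glutamatergic terminals, read 1323, 1195, 1147 and 1169 CPM in knock-in females and 1348, 954, 1312, 1175 and 1286 CPM in 5xFAD females. In males it read 1596, 1148, 1130.2, 1067 and 1171 CPM with the knock-in and 983, 1465, 1193, 1073 and 1519 CPM without. The groups overlapped in both sexes, and the change over both was -0.02 (SE 0.10, adjusted p = 0.963). Sv2a, a vesicle glycoprotein that binds the drug levetiracetam, had the lowest p of the class. Its values were 428, 363, 340.7 and 424 CPM in knock-in females, 418.5, 354.5, 396, 435 and 369.6 CPM in 5xFAD females, 392, 418, 389, 369 and 364 CPM in knock-in males and 367, 382, 424, 487 and 464 CPM in 5xFAD males. All groups overlapped, and the change over both sexes was -0.08 (SE 0.07, adjusted p = 0.685).

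The other vesicle genes gave no call in any comparison with edgeR. Syp, the abundant vesicle membrane protein used to stain synapses, ran from 609 CPM in 5xFAD male 6 to 1525 CPM in 5xFAD male 9, and its change was -0.01 over both sexes (adjusted p = 0.979). The synapsins, which hold vesicles in reserve, ran from 359.7 to 659 CPM (Syn1), 484 to 868 CPM (Syn2) and 2.08 to 12.8 CPM (Syn3). Syn1 changed by 0.13 in females and -0.24 in males. Syn3 changed by -0.28 in females and 0.51 in males, with adjusted p values of 0.66 and 0.8. Sv2b ran from 282.5 to 579 CPM and Sv2c from 18.8 to 40.6 CPM, Syngr1 from 336 to 561 CPM, Synpr from 96.8 to 157 CPM, Rab3a, the GTPase of docked vesicles, from 369.8 to 651 CPM, and Rab3c from 350.1 to 684 CPM. Slc17a6, the glutamate transporter used mostly by subcortical neurons, lay between 13.5 CPM in 5xFAD male 7 and 52.8 CPM in knock-in female 5. Summed over 8 thalamic markers, knock-in female 5 ranked 5 among the libraries (209.7 CPM). 5xFAD male 7 ranked 2 for these markers (276.3 CPM). The part of neighbouring tissue in Slc17a6 was not tested.

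The neurexins are presynaptic adhesion receptors that face neuroligins across the cleft. Nrxn2 read 437, 354, 310.2 and 353.5 CPM in knock-in females, 364, 331, 370.5, 368 and 369 CPM in 5xFAD females, 379, 341, 327, 322 and 352 CPM in knock-in males and 217, 328, 339, 423 and 401 CPM in 5xFAD males. Nrxn3 read 179.6, 169.8, 135 and 128 CPM in knock-in females and, in 5xFAD females, 155, 149, 164, 164 and 158 CPM, with 203, 121, 142, 181 and 144 CPM in knock-in males and 195, 178, 157.5, 164 and 185 CPM in 5xFAD males. Both genes overlapped between genotypes in both sexes. Their changes over both sexes were 0.01 (SE 0.09, adjusted p = 0.974) for Nrxn2 and -0.10 (SE 0.09, adjusted p = 0.696) for Nrxn3.

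The active zone held the one gene that fell. Its medians were -0.17 over both sexes with 8 of 8 below 0, -0.12 in females and -0.13 in males with 6 of 8 below 0. Unc13b encodes Munc13-2, which primes vesicles at part of the hippocampal synapses, and Unc13a encodes its relative Munc13-1, the main priming factor of excitatory terminals. Unc13b stood at 38.6, 31.8, 28.7 and 33.5 CPM in knock-in females 1, 2, 4 and 5 and at 53.0, 49.5, 49.97, 62.7 and 51.8 CPM in 5xFAD females 1 to 5. Every knock-in female lay below every 5xFAD female, with 5xFAD female 4 highest. The log2 change was -0.69 (SE 0.15, 95% interval -0.999 to -0.376, edgeR adjusted p = 0.0142). Knock-in males 6 to 10 had 50.9, 33.2, 39.4, 45.5 and 64.0 CPM, and 5xFAD males 48.0, 43.4, 51.4, 38.9 and 38.1 CPM. The male groups overlapped (change 0.08, adjusted p = 0.944), and the difference between the sexes was -0.77 (SE 0.20, adjusted p = 0.0723). The fall in females did not pass without knock-in female 2 (-0.68, adjusted p = 0.0662) or without knock-in female 4 (-0.60, adjusted p = 0.0841), and in either case 0 of all genes tested with edgeR passed in females (3403 and 3027 at an unadjusted p under 0.05). Over all 29 alternatives the fall of Unc13b in females passed in 25 and not in 4, and its adjusted p ran from 0.0012 to 1. Without knock-in male 7 the difference between the sexes passed for Unc13b (-0.87, adjusted p = 0.0215) and for Unc13a (-0.77, adjusted p = 0.0376); in that fit 2.69% of all genes passed, 489 of 18166.

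Unc13a followed the same order at a higher level. It read 299.6, 277, 206 and 261 CPM in knock-in females and 438, 361, 342, 409 and 336 CPM in 5xFAD females, again without overlap. The change was -0.53 (SE 0.16, 95% interval -0.86 to -0.20, adjusted p = 0.054), just short of the threshold; DESeq2 called it (adjusted p = 0.0236) along with 9.94% of all genes, edgeR called it without knock-in male 6 (5.85% of all genes) or knock-in male 7 (6.62%), and over all alternatives it passed in 6 of 29. Males read 460.4, 223, 283.5, 309.9 and 393 CPM with the knock-in and 284, 333, 307, 273 and 339 CPM without, and overlapped (change 0.12, adjusted p = 0.919). Female groups were apart with the knock-in lower for 2 of the 32 release genes, Unc13a and Unc13b, and for 9.03% of all genes, and apart with the knock-in higher for 0 of the 32 and 3.86% of all genes. A share of 2 in 32 is near this background. Exons of Unc13a overlap Colgalt1 on the other strand (58.9 CPM), and whether counting used strand is not given in the sources used here.

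Pclo encodes piccolo, a giant scaffold of the active zone, and had the lowest p of the class over both sexes. It read 194, 205, 135 and 146 CPM in knock-in females, 205, 182, 238, 268 and 242 CPM in 5xFAD females, 242, 133, 185, 222 and 252.5 CPM in knock-in males and 279, 245, 207, 175 and 218 CPM in 5xFAD males. Groups overlapped in both sexes, knock-in females 4 and 5 and knock-in male 7 being lowest. The change was -0.26 over both sexes (SE 0.12, adjusted p = 0.412), -0.42 in females (adjusted p = 0.163) and -0.12 in males (adjusted p = 0.934).

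Rims1, which links vesicles, calcium channels and Munc13, was the most abundant active zone gene per length. It read 230.3, 262, 187 and 171 CPM in knock-in females, 173, 162, 207, 249.9 and 203 CPM in 5xFAD females, 219, 191.5, 187, 229.7 and 234 CPM in knock-in males and 229, 215, 245, 198 and 242 CPM in 5xFAD males. The genotypes overlapped, with a change of 0.00 over both sexes (SE 0.09, adjusted p = 0.995). Its relative Rims2 ran from 58.0 to 96.7 CPM, the bassoon gene Bsn from 213 to 558.5 CPM, and the ELKS family genes Erc1 and Erc2 from 37.7 to 75.9 and from 141 to 225 CPM. Erc2 had changes of 0.19 in females and -0.23 in males, with a difference between the sexes of 0.42 (SE 0.16, adjusted p = 0.186).

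**Figure D3:**
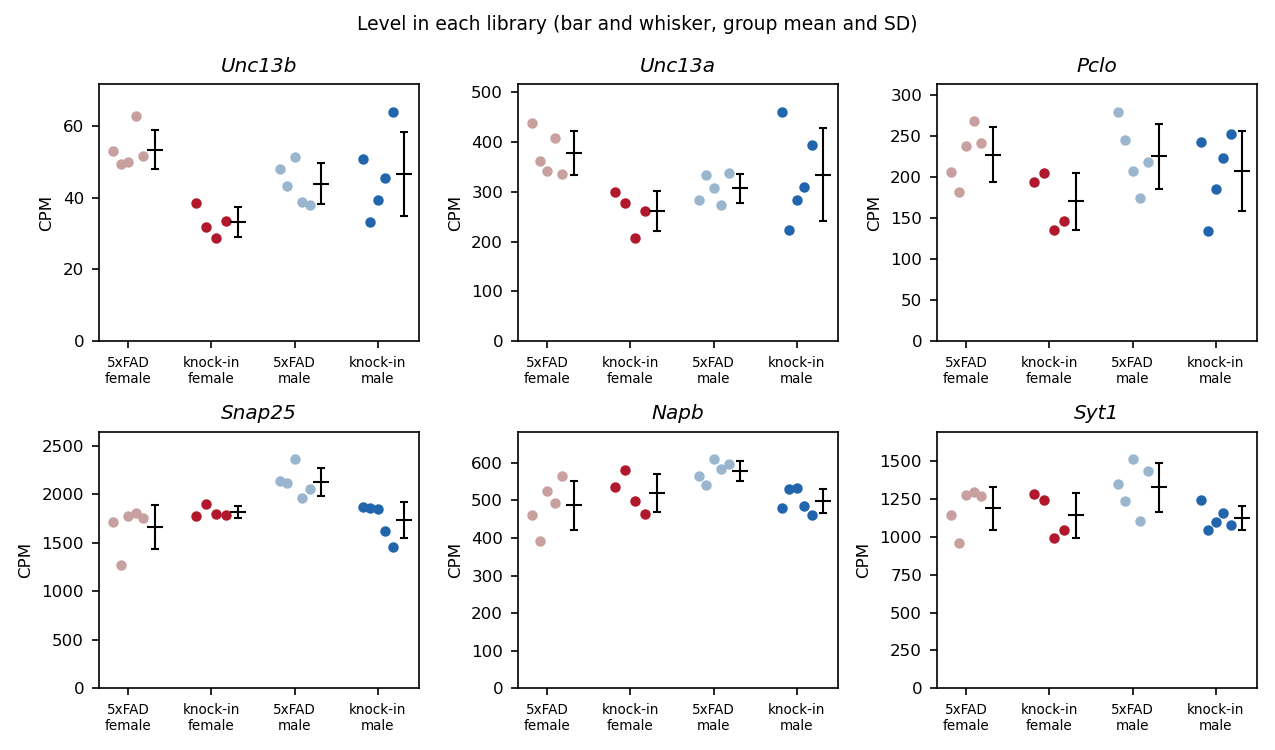
Level in CPM (y axis, from 0) of Unc13b, Unc13a, Pclo, Snap25, Napb and Syt1 in each library of the 4 groups (points), with group mean and SD beside them. Knock-in females lie below all 5xFAD females for Unc13b and Unc13a, and knock-in males below all 5xFAD males for Snap25 and Napb.

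Upstream sequence is shown for the 3 active zone genes with the lowest changes in females and for Nsf, the member with the lowest slope p among those whose level went down as the noncoding level went up (below). RefSeq gave the 250 bases before the start of 27 of the 32 release genes on GRCm38.p6, which is not the build of the counts (mm39). Each sequence runs 5′ to 3′ on the strand of its gene, and capitals mark GC boxes (GGGCGG, bound by Sp1-type factors) and CCAAT boxes, in either orientation. The windows are chr4:43058703-43058952 on the plus strand for Unc13b, chr8:71671758-71672007 on the minus strand for Unc13a, chr5:14514668-14514917 on the plus strand for Pclo and chr11:103954057-103954306 on the minus strand for Nsf.
Unc13b: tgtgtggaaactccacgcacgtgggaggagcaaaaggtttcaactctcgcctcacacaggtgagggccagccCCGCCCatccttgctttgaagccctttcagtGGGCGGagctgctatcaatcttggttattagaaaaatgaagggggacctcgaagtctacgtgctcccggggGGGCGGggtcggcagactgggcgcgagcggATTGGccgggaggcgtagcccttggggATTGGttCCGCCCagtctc
Unc13a: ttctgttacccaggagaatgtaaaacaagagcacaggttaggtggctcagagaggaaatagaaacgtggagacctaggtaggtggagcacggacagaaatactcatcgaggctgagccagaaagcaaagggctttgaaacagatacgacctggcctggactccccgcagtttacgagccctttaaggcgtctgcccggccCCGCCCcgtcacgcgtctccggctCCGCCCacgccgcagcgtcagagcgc
Pclo: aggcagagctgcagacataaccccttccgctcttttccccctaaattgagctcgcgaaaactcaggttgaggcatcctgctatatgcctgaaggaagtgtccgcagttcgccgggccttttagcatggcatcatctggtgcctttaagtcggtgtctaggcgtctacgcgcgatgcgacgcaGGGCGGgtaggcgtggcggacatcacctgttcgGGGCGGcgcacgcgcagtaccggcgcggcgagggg
Nsf: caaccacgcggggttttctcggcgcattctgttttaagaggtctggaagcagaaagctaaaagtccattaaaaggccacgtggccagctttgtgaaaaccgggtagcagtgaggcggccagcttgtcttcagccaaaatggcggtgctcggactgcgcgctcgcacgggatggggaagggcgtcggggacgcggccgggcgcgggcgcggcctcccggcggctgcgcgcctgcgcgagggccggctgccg
The Unc13b window holds 4 GC boxes and 2 CCAAT boxes, those of Unc13a and Pclo hold 2 GC boxes each and no CCAAT box, and that of Nsf holds neither. Of the 27 release genes with a sequence, 19 (70.4%) hold a GC box in any window of theirs. This compares genes with single windows, of which 32.7% of 32851 of the same length in the RefSeq table hold one. A CCAAT box lies in 8 of 27 (29.6%, against 33.8%), and an E-box (CACGTG) in 3 (11.1%, against 6.02%), those of Nsf, Sv2b and Unc13b. The release genes' windows were also richer in G and C, with a median over genes of 61.2% against 52.4% over single windows. A match is a run of letters and not a measured binding site.

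The fall of Unc13b in females came in libraries that also differed in other ways. The noncoding level of the knock-in females was below that of all 5xFAD females, and of all comparisons this was the one with the most calls. Within groups, the slope of each gene on the noncoding level, fitted with 4 group means, gives the log2 change per unit of that level. This slope was chosen with earlier results of these data known. It was 0.30 for Unc13b (SE 0.09, edgeR adjusted p = 0.0727), 0.21 for Pclo (adjusted p = 0.51) and 0.14 for Unc13a (adjusted p = 0.666). Without 1 library in turn the slope of Unc13b ran from 0.22 to 0.45. Over all alternatives its adjusted p ran from 0.0435 to 0.332. The slopes of Pclo and Unc13a rested on single libraries: without knock-in male 7 they were 0.10 and 0.03, and without 5xFAD male 10 they were 0.40 and 0.42, neither past the threshold. None of the 32 passed with edgeR or limma-voom, and by DESeq2 only Unc13b passed (adjusted p = 0.044). An unadjusted p under 0.05 with edgeR was reached by 3 of the 32 and by 2483 of the 18204 genes. Of all genes, 5.53% passed with DESeq2 and 3.92% with edgeR (3.89% higher and 0.033% lower with a higher noncoding level). With the noncoding level in the model, the change of Unc13b in females was -0.18 (adjusted p = 1), and 0 of the 18204 genes were called in females, 316 of them at an unadjusted p under 0.05. The female groups did not overlap in this level, and 7 of its 8 genes were themselves called in females. For any gene this fit therefore has little power to separate genotype from the noncoding level in females, and nothing is concluded from the lost calls.

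Knock-in male 10, with the highest noncoding level of its group, had the highest Unc13b, and knock-in male 7 had the lowest of both. In 5xFAD males, male 10 had the lowest of both, while the highest noncoding level was in male 6 and the highest Unc13b in male 8. Most other release genes sloped the other way: 24 of 32 slopes were below 0, 9 of 9 in the fusion class, with a median of -0.07 against -0.01 over all genes. Nsf had a slope of -0.16 (SE 0.07, adjusted p = 0.279) and Sv2c one of 0.24 (SE 0.11, adjusted p = 0.354). The highest Nsf, 1280 CPM, was in 5xFAD male 10, the library with the lowest noncoding level of its group. The slope of Nsf without this library is not given here. Without 5xFAD male 10 the median slope was -0.03, with 18 of 32 below 0. With the noncoding level in the model, the median change of the 32 in females was -0.12, with 26 below 0, and in males it was -0.12, also with 26 below 0.

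**Figure D4:**
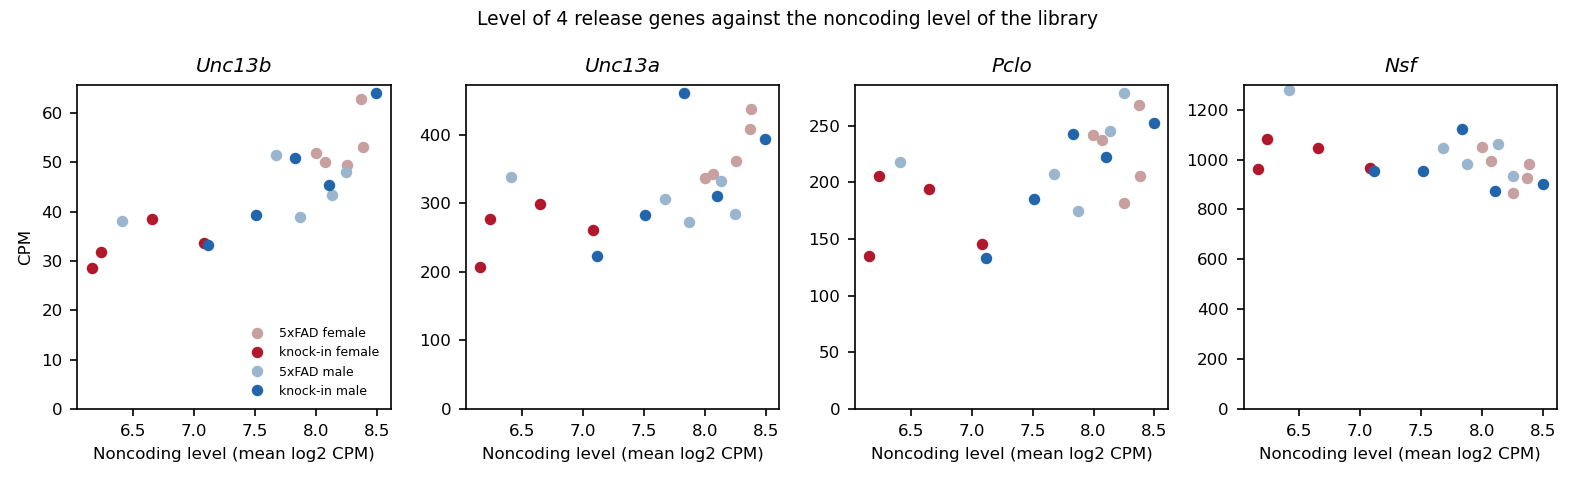
Level in CPM (y axis, from 0) of Unc13b, Unc13a, Pclo and Nsf against the noncoding level of the library (x axis, mean log2 CPM of 8 long noncoding RNAs); each point is 1 of 19 libraries, coloured by group. Knock-in females lie at 6.16 to 7.08 on the x axis, 5xFAD females at 7.999 to 8.38, and among males the lowest and highest Unc13b of the knock-in group lie at its lowest and highest noncoding level.

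Markers of other cells also differed between the female groups. Summed over 10 genes, astrocyte markers ran from 6030 to 7055 CPM in knock-in females and from 4744 to 5419 CPM in 5xFAD females, without overlap, and from 5351 to 6422 and 4901 to 5840 CPM in the male groups. Microglial markers (12 genes) ran from 969 to 1505 and 849 to 1096 CPM in females and from 878 to 1334 and 674 to 902 CPM in males, the knock-in given first. Pan-neuronal markers (14 genes) overlapped, at 6308 to 6752 against 5430 to 6689 CPM in females and 5799 to 6931 against 5484 to 6985 CPM in males. Thy1, named after its values were seen, made up the largest part of this sum. Its means were 2271 against 1923 CPM in females and 2257 against 1824 CPM in males. The 5xFAD transgenes use its promoter, and its part in the differences of the sum was not tested. Markers of the choroid plexus (8 genes) ran from 33.1 to 11471 CPM over the libraries, and its defining gene Ttr from 10.6 to 10528 CPM. The choroid plexus gene Slc4a5 was the one marker at 0 in a library. Markers of oligodendrocyte precursors (5 genes, 310.5 to 350.0 against 250.2 to 302 CPM) and of erythrocytes (5 genes, 192 to 355 against 100.2 to 159 CPM) did not overlap between the female groups either, with the knock-in higher. The other lists overlapped between genotypes in both sexes. Over all libraries, markers of pyramidal cells summed to 3595 to 5909 CPM, of dentate granule cells to 369.5 to 699.5, of interneurons to 1329.5 to 1766, of thalamus to 113 to 291, of striatum to 144 to 243.5, of oligodendrocytes to 3355 to 7595 and of endothelium to 214 to 274 CPM. In females with edgeR, 7 of the 8 noncoding genes and 1 of 14 pan-neuronal markers fell, and 2 of 10 astrocyte, 1 of 12 microglial and 3 of 5 erythrocyte markers rose, against 4.43% of all genes lower and 1.13% higher. The pan-neuronal marker that fell was Snhg14, itself a long noncoding RNA (-1.11, adjusted p = 0.0303), and no protein-coding marker of that list passed. The part of these cells in the changes of the release genes was not tested.

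Sex was compared within each genotype. In 5xFAD animals 0 of the 32 release genes passed with edgeR, against 0.0385% of all genes. DESeq2 called 1, Snap25 (log2 change -0.36, adjusted p = 0.046), and 0.258% of all genes, and limma-voom called 0. With edgeR, 2022 of the 18204 genes and 4 of the 32 reached an unadjusted p under 0.05. Females minus males had a median of -0.15, with 24 below 0, against 0.01 over all genes. Snap25 was lower in every 5xFAD female than in every 5xFAD male, as were 1.72% of all genes (edgeR change -0.36, SE 0.10, adjusted p = 0.35). The median over the 32 was -0.08 without 5xFAD female 2, -0.06 without 5xFAD male 10 and -0.07 when only library size was scaled for. In knock-in animals 0 of the 32 passed with edgeR, DESeq2 or limma-voom, against 0.0494% of all genes with edgeR. An unadjusted p under 0.05 with edgeR was reached by 2615 of the 18204 genes and by 2 of the 32. The median was 0.02 (19 above 0, or 11 when only library size was scaled for), and it was -0.01 without knock-in female 1 (14 above 0) and 0.09 without knock-in female 4 (27 above 0). Unc13b, at -0.49 (SE 0.15), had an adjusted p of 0.123, and passed without knock-in male 7 (-0.59, adjusted p = 0.0413), when 1.87% of all genes passed.

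Release genes were not spread evenly over the libraries. 5xFAD female 2 was the lowest of all 19 for 13 of the 32 genes, among them Snap25, Syt1, Vamp2, Syn1, Syn2 and Slc17a7, and it also had the lowest summed pan-neuronal markers, 5430 CPM. 5xFAD male 10, which had the lowest noncoding level of its group, was the highest of all 19 for 8 genes, among them Nsf, Bsn, Rab3c and Sv2b, and ranked second for pan-neuronal markers with 6939 CPM. Knock-in female 4 was lowest for 5 genes, among them Unc13a, Unc13b and Rims2, and knock-in male 7 for 6, among them Bsn (213 CPM), Pclo (133 CPM) and Erc1 (37.7 CPM). Relative to each gene's mean, the median of the 32 was -0.23 in knock-in female 4 and 0.19 in 5xFAD male 10 on the log2 scale.

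**Figure D5:**
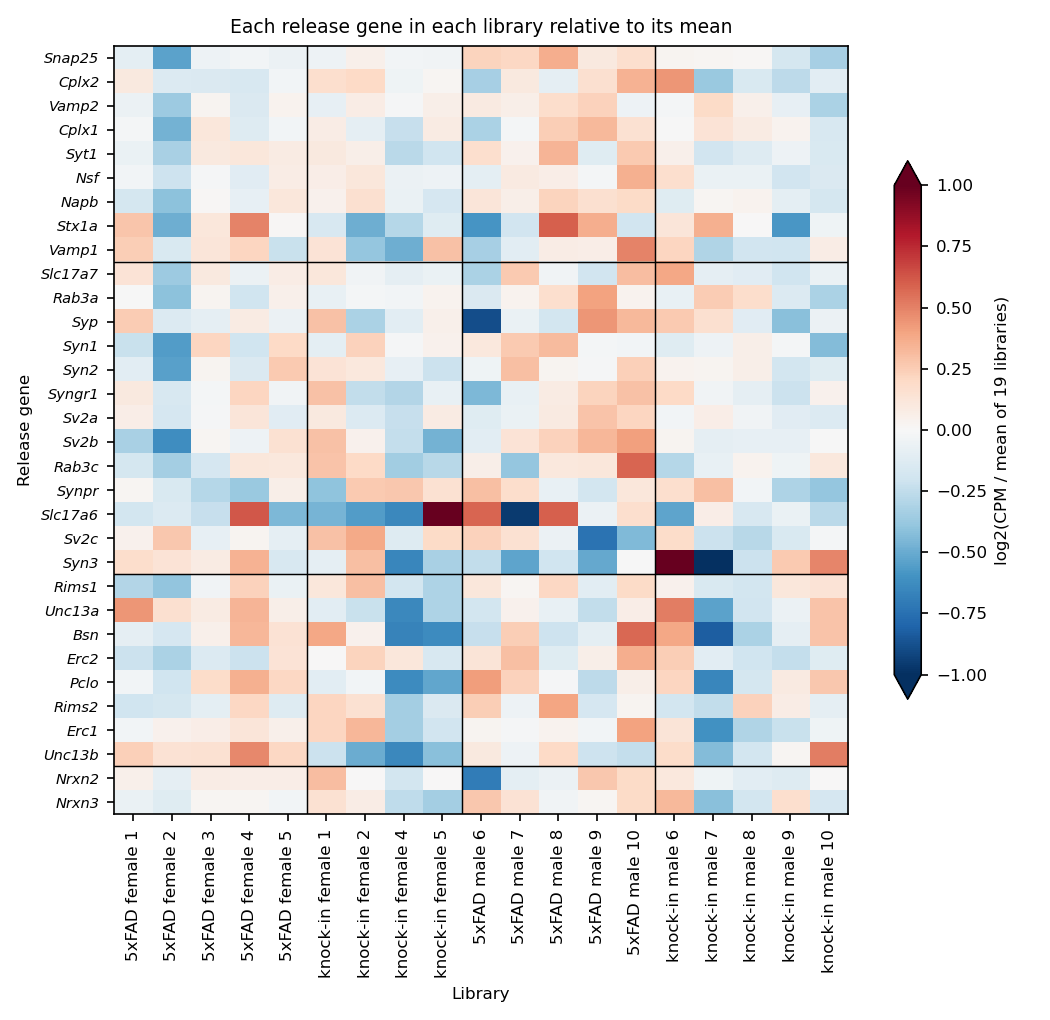
Log2 ratio of each release gene (rows, by role) to its mean over 19 libraries, for each library (columns, by group), on a colour scale cut at -1 and 1. 5xFAD female 2 is below the mean for most fusion and vesicle genes, knock-in female 4 and knock-in male 7 are lowest for several active zone genes, and Slc17a6 and Syn3 vary most.

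Within groups the release genes partly rose and fell together across animals. After group means were removed, the median Pearson r over 496 pairs was 0.23, against 0.08 over all pairs of genes with a mean of at least 100 CPM. Of the release genes, Syn3, Slc17a6, Sv2c, Unc13b, Erc1 and Rims2 lie below that level, so the 2 sets are not matched. These values describe 19 libraries that share depth and dissection for all genes. Active zone genes were the closest, with a median r of 0.51 over 28 pairs, then fusion genes with 0.42 over 36 pairs and vesicle genes with 0.16 over 78 pairs. The highest pairs were Syngr1 with Nrxn2 (0.90), Bsn with Erc1 (0.90), Syp with Nrxn2 (0.88) and Vamp2 with Rab3a (0.88). 5xFAD male 6 was the lowest of all 19 libraries for Syngr1 (336 CPM), Syp (609 CPM) and Nrxn2 (217 CPM). The r of these pairs without it was not computed. The lowest pairs were Rab3a with Sv2c (-0.63), Slc17a6 with Erc2 (-0.60) and Rab3a with Unc13b (-0.58). Of the 496 pairs, r was above 0.7 in 43 and below -0.3 in 46. Such pairs were not counted over all genes, so whether these counts are unusual is not known. With the noncoding level itself, r within groups was 0.66 for Unc13b and -0.62 for Nsf, the extremes of the 32.

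Exon length went with these differences among the release genes. Across the 32 genes, which are not independent, Spearman's rho between exon length and the change in females was -0.38, and between exon length and the slope on the noncoding level 0.38. Over 17787 tested genes with a length the values were -0.02 and 0.14. Unc13b and Pclo have the longest exon sequence of the 32, 22.8 and 22.5 kb, with all annotated exons merged.

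A wider list of 89 presynaptic genes, of which 88 were tested, gave a similar account. Over both sexes 0 of its 31 priming and fusion regulators, 23 active zone and adhesion genes, 16 tested vesicle loading genes and 18 endocytosis genes passed with edgeR, and 0 passed in males, in the difference between the sexes or in either sex comparison (2 over both sexes, 13 in males, 12 in the difference, 14 in 5xFAD and 4 in knock-in animals had an unadjusted p under 0.05). In females 1 gene fell, Stx3, a syntaxin relative (log2 change -0.65, SE 0.19, adjusted p = 0.0458), which was also the one to rise with the noncoding level (slope 0.45, adjusted p = 0.0233). A share of 1 in 88 is below that of all genes, 5.56% in females and 3.92% for the slope. The fall of Stx3 passed in 9 of 29 alternatives (adjusted p from 0.00382 to 1) and not without any 1 of the 5xFAD females or without knock-in female 1, 2 or 4; with the noncoding level in the model its change was 0.10. Its slope did not pass without 5xFAD male 6 (0.38, adjusted p = 0.0703) or without 5xFAD male 10 (0.23, adjusted p = 0.42). The wider active zone genes had a median of -0.20 in females, with 19 of 23 below 0, and -0.01 in males. The wider vesicle loading genes, among them the proton pump subunits that acidify vesicles, had 14 of 16 above 0 in females (median 0.12) and 14 of 16 below 0 in males (median -0.15). Of all genes, 51.05% lay above 0 in females and 51.91% in males. 5xFAD female 2 had the lowest sum of its group for the loading genes, 3673 CPM against a group mean of 4226 CPM. The signs of the wider genes are not given without it or under other scalings. Named by their p over both sexes, Stx3 (-0.37, adjusted p = 0.333) and the calcium sensor Doc2b (0.20, adjusted p = 0.53) led the regulators, and the liprin Ppfia2 (-0.17, adjusted p = 0.376) and the receptor phosphatase Ptprd (-0.23, adjusted p = 0.468) the adhesion genes. For loading these were the monoamine transporter Slc18a2 (-0.26, adjusted p = 0.531) and Slc10a4 (-0.87, adjusted p = 0.633), and for endocytosis the kinase Aak1 (-0.15, adjusted p = 0.462) and the adaptor Ston2 (0.23, adjusted p = 0.463).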

How the data were processed

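Bulk RNA-seq of the left hippocampus of 19 mice was analysed, 1 library per animal per the labels. The authors deposited estimated counts per gene, as whole numbers, and these were the values tested. The submitters' processing notes name FastQC, Salmon, DESeq2 and Seurat and the build mm39, with no version or role; strand is not given in the sources used here. A second table deposited by the authors holds a normalized signal, counts scaled by factors that differ between genes and libraries, used here in 1 alternative; another, variance-stabilized on a log2 scale by the authors, was not tested. Counts were filtered with filterByExpr (minimum count 10) and tested with edgeR 4.0.16 quasi-likelihood (TMM scaling, robust, Benjamini-Hochberg adjustment over all genes tested; threshold 0.05) in R 4.3.3. Group means of genotype and sex gave the changes within sex, their difference and the sex differences; the change over both sexes came from a model with sex as covariate. Alternatives were DESeq2 1.42.0, limma 3.58.1 voom, other scalings, other low-count filters, the replicate number as a block, the noncoding level as a covariate and leaving out each library; the tests were tried on simulated data. The noncoding slope was added after seeing the data. Exon lengths came from GENCODE M21 (GRCm38), so levels per kb mix builds. They merge all annotated exons of a gene and are not transcript lengths. The 2 genotypes carry animal numbers whose ranges do not overlap, and no batch, date or litter is given, so genotype and cohort cannot be told apart. The members, the wider lists and the marker lists were chosen with earlier results of these data known. Values are given in every library for release genes past the threshold in any comparison and, in each role class, for the gene with the highest level per length and the gene with the lowest p over both sexes. All 32 are named with their levels, and the 2 genes of lowest p over both sexes are named from each wider list. Unc13a, Napb, Nsf, Erc2, Stx1a, Syn1, Syn3 and Sv2c were the other release genes singled out for a change or slope. They and Stx3 in females were named after their values were seen.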

Additional observations from a re-analysis of the deposited data

Results flagged for a closer look

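In 10 of 128 groups of 4 or 5 libraries, 1 library stood apart from the others of its group for a release gene by Dixon's test at the 95% level, which chance gives in about 1 in 20 groups. In 5xFAD female 2, Snap25 was at 1266 CPM (others 1713 to 1805) and Nrxn2 at 331 CPM (others 364 to 370.5). Knock-in male 6 was high for Cplx2 with 1710 CPM (others 976 to 1171), Slc17a7 with 1596 CPM (others 1067 to 1171) and Erc2 with 207 CPM (others 148.5 to 163). 5xFAD female 4 was high for Slc17a6 with 40.5 CPM (others 19.3 to 23.9), Rims2 with 84.9 CPM (others 64.1 to 68.9) and Unc13b with 62.7 CPM (others 49.5 to 53.0). Slc17a6 reached 52.8 CPM in knock-in female 5 (others 16.8 to 19.1), and Erc1 75.9 CPM in 5xFAD male 10 (others 56.2 to 58.9).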

How the results depend on the processing

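No release gene that passed a threshold changed direction under any alternative. Of all 18204 genes, 1810 were called in females with DESeq2, 722 with the authors' normalization and 1279 when only library size was scaled for. With only the groups compared in the fit 1603 of 17258 were called, and with edgeR 1013 of 18204. In females the count of release genes called was 2, Unc13a and Unc13b, with DESeq2, with the authors' normalization, when only library size was scaled for and with only the groups compared in the fit, against 1 with edgeR. It was 0 with the noncoding level as a covariate (Unc13b -0.18, adjusted p = 1) and with the replicate number as a block (Unc13b -0.71, adjusted p = 0.0988; Stx3 of the wider lists -0.62, adjusted p = 0.148), and ran from 0 to 2 when 1 library was left out. With that covariate, which did not overlap between the female groups, the median over the 32 in females was -0.12, against 0.05. For the difference between the sexes, 766 of 18204 genes were called with DESeq2 and 402 when only library size was scaled for. The count of release genes was 1 in each of these fits, and 0 to 2 without 1 library. For sex in 5xFAD it was 1 with DESeq2, and for sex in knock-in animals 0 to 1 without 1 library. For the noncoding slope, 1007 of 18204 genes passed with DESeq2, 920 when only library size was scaled for and 701 of 18525 without knock-in female 5. The count of release genes was 1, Unc13b, in each of these fits (edgeR adjusted p = 0.0484 without knock-in female 5). It was 0 to 1 over the fits without 1 library. Over both sexes and in males it was 0 in every alternative run. Medians without 1 library ran from -0.10 to -0.03 over both sexes, from -0.03 to 0.12 in females and from -0.18 to -0.10 in males. The cause of these differences was not tested. Same-numbered animals of the genotypes correlated over 0.1 in 3 of 9 pairs (r from -0.44 to 0.37 over 10460 genes), so the numbers were not taken as pairs; the block could not be fitted for the sex comparisons, where the numbers fall within sex. Of the values computed under alternatives, 6082 stayed on their side of the threshold and within their spread, 43 moved, 15 passed and 4 no longer passed. With 4 or 5 animals a group, the 95% intervals had a median half-width of 0.29 in females and 0.27 in males on the log2 scale, which limits what smaller changes can be seen. Counts of Unc13a, Syn1, Syn2, Syn3 and Rab3a may include reads of genes on the other strand.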
